A study of Mus musculus with 8 samples.

Results

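This account covers 34 mouse genes of the SREBP pathway, the set of enzymes and regulators through which cells make sterols and fatty acids. They were found by gene symbol in a table of 23235 genes, and all 34 were present. They comprised 18 sterol enzymes, 5 SREBP regulators and 11 fatty acid genes. RNA levels were measured in granulosa cells of the ovary, which enclose and nourish the oocyte, from female C57BL/6 mice in 8 libraries. The groups were CNOT6/6L knockout (KO) at 44 h after PMSG, untreated KO (0 h), wild type (WT) at 44 h after PMSG and untreated WT (0 h), with 2 libraries each. CNOT6 and CNOT6L are deadenylase subunits of the CCR4-NOT complex, which shortens mRNA poly(A) tails, and PMSG is a gonadotropin with FSH-like activity in rodents. The labels gave neither the PMSG dose nor the age of the mice, nor how or in which cells the 2 genes were deleted, and they did not say whether replicates came from separate animals. P-values therefore measure only how far these libraries lay apart, and that spread may be technical. Values are FPKM (fragments scaled to gene length and library size), so levels can be compared between genes, and changes are on the log2(FPKM + 1) scale, on which changes of low genes are understated.

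SREBPs are transcription factors held in the endoplasmic reticulum membrane by SCAP and the INSIG proteins. When membrane sterol is low, SCAP escorts the precursor to the Golgi, where proteases release the part that enters the nucleus. SREBP-2, from Srebf2, mainly drives sterol synthesis and lipoprotein uptake, and SREBP-1, from Srebf1, mainly drives fatty acid synthesis and desaturation. In the ovary, cholesterol is the substrate for steroid hormones, and granulosa cells take up a steroid-making role as follicles mature.

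Most members stood higher at 44 h than at 0 h in WT, in both arms of the pathway. All 33 members that could be tested lay above 0, with a median log2 change of 1.09 for 17 sterol enzymes and 1.30 for 11 fatty acid genes, against -0.13 over all 13688 genes tested. In KO at 44 h the libraries disagreed: replicate 2 reached the WT level at 44 h, whereas most sterol enzymes in the library labelled KO replicate 1 were near the KO level at 0 h. Before PMSG, 28 of 33 members were lower in KO than in WT, whereas 7487 of all 13688 genes tested were higher. None of these differences passed the test over all 8 libraries for any member, and that test called 0.0219% to 0.139% of all genes. With the WT libraries alone, 23 of 33 members were called higher at 44 h, against 3.99% of all genes.

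**Figure D1:**
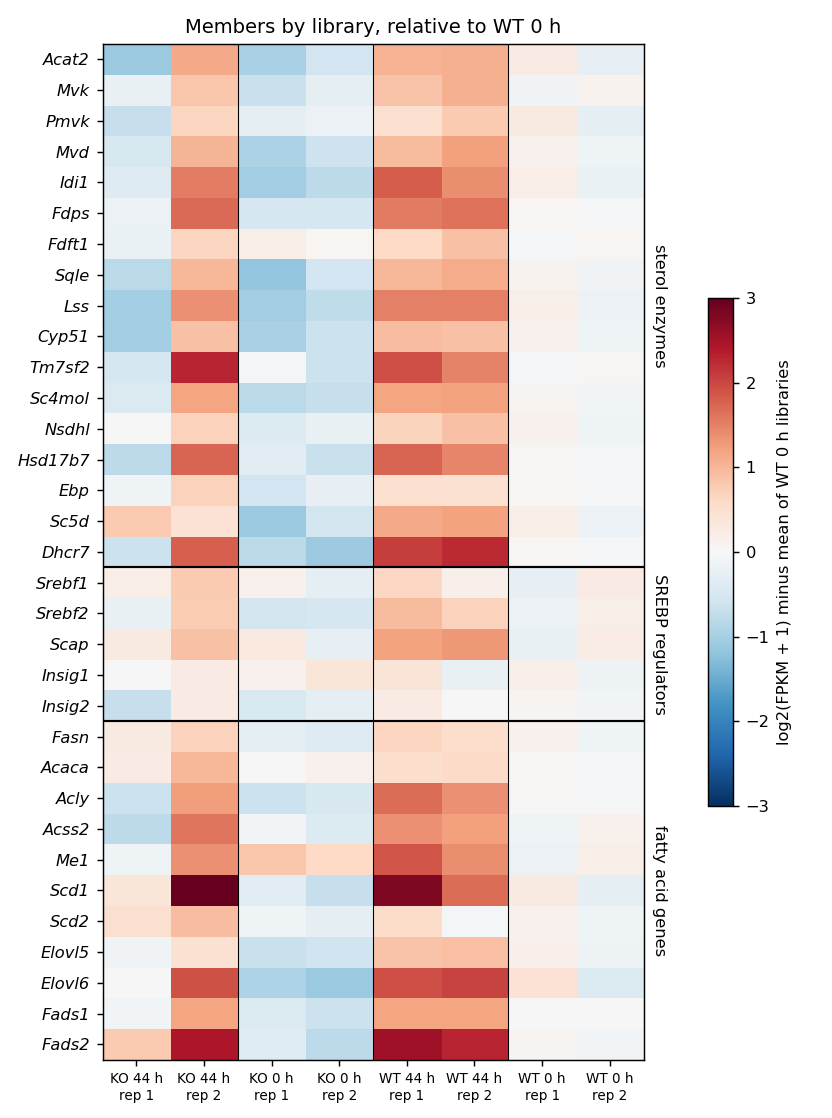
Each row is 1 of the 33 tested members and each column 1 library; colour gives log2(FPKM + 1) minus the mean of the WT 0 h libraries, with red higher and blue lower. The columns of KO replicate 2 and of both WT libraries at 44 h are mostly red in all 3 groups of genes, whereas the column of the library labelled KO replicate 1 at 44 h is mostly blue among the sterol enzymes, apart from Sc5d.

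Promoters are shown for 4 members as sequence background. RefSeq promoter windows (GRCm38.p6, 250 bases before to 50 bases after a transcription start) were found for 28 of the 34 members, as 37 windows; Sc4mol was matched under its RefSeq symbol Msmo1. The FPKM were made on another build, mm9, so these positions belong to the promoters only. Shown are Hmgcs1, whose window was the only one among members to hold the core letters of a sterol regulatory element (TCACNCCAC), and the sterol enzyme, regulator and fatty acid gene with the smallest p for 44 h against 0 h in WT. Sequences run 5′ to 3′ on the strand of the gene, and capitals mark TCACNCCAC, CACGTG (E-box), CCAAT (NF-Y box) and GGGCGG (Sp1 box) on either strand. The windows lie at chr13:119690101-119690400 on the plus strand (Hmgcs1), chr9:42264251-42264550 on the minus strand (Sc5d), chr9:110333038-110333337 on the plus strand (Scap) and chr19:10101454-10101753 on the minus strand (Fads2).
Hmgcs1: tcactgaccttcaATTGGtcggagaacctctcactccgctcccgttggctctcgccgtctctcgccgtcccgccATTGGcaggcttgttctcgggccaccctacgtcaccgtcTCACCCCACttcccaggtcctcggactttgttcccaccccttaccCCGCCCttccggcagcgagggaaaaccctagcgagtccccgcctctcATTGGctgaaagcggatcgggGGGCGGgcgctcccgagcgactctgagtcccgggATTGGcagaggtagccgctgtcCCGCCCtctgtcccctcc
Sc5d: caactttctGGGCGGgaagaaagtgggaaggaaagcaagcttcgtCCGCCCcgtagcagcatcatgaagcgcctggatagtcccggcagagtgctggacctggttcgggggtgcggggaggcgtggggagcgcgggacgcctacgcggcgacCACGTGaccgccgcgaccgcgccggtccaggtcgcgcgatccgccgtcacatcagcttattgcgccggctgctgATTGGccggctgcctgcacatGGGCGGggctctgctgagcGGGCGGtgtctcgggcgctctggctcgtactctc
Scap: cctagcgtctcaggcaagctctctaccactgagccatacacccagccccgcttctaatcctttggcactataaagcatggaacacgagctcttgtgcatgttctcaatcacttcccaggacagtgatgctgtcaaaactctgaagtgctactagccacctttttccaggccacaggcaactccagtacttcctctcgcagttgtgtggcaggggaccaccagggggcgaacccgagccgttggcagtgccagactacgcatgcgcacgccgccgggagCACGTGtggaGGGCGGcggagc
Fads2: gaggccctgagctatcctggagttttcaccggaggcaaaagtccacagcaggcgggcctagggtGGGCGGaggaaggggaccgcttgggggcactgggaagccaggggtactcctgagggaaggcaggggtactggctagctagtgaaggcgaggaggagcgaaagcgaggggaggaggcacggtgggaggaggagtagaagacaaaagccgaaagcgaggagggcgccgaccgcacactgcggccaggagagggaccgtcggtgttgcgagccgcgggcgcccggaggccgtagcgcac

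In Hmgcs1 the TCACNCCAC match ran from base -137 to base -129 of the start. These letters were found in 2.7% of the windows of members, 1.17% of 12259 windows of genes tested and 1.24% of all 32851 windows. CCAAT was found in 64.9% of the windows of members, 38% of those of genes tested and 37.4% of all. Among sterol enzymes 77.8% of windows held CCAAT, and among fatty acid genes 55.6%. GGGCGG was found in 73% of the windows of members, 59.6% of those of genes tested and 35.7% of all, with 83.3% among sterol enzymes and 44.4% among fatty acid genes. CACGTG was found in 18.9%, 9.75% and 7.15% of the same 3 sets, and the members holding it were Dhcr7, Hsd17b7, Sc5d, Insig1, Scap and Elovl5. Some windows of 1 gene overlap one another, and a match of letters is a description of the sequence only.

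Facts of the whole series that bear on the members were few. Relative library depth, read from the steps between low FPKM, was 0.904 to 1.25 where 1 is the median library, and the deepest was KO replicate 2 at 44 h. All 10 granulosa markers had an FPKM of at least 1 in every library. Their summed FPKM was 19777 to 28510 in KO cells at 44 h and 14288 to 14652 in KO cells at 0 h. In WT cells it was 14925 to 17632 at 44 h and 12413 to 13923 at 0 h. Inha, at 8434 to 23238 FPKM, made most of each sum. In each library at 44 h, 8 to 9 of the 10 markers were above the WT 0 h mean, whereas Amh was lower at 44 h in both genotypes. At 44 h Amh was 46.4 and 8.47 FPKM in KO and 19.1 and 20.5 in WT cells. Cyp19a1 was 29.4 and 122 in KO and 96.4 and 129.6 in WT cells at 44 h. These markers were thus split between the KO libraries at 44 h, whereas Foxl2, Nr5a1 and Fst were close together in them. The targeted genes were not absent: Cnot6 was 26.7 and 17.4 FPKM in KO cells at 44 h and 11.7 and 12.0 in KO cells at 0 h, against 26.0 and 26.9 in WT cells at 44 h and 29.1 and 18.4 in WT cells at 0 h. The library labelled KO replicate 1 at 44 h thus held a WT level of Cnot6, whereas its Cnot6l, at 2.01 FPKM, was below every WT library. Cnot6 in KO replicate 2 at 44 h, at 17.4, was just below the lowest WT library, at 18.4. Cnot6l was 2.01 and 1.61 FPKM in KO against 4.202 and 2.63 in WT cells at 44 h, and 4.69 and 1.97 in KO against 6.11 and 7.07 in WT cells at 0 h. Neither passed the test for KO against WT (limma adjusted p = 0.396 to 0.723), and a deletion of part of a gene can leave FPKM above 0. Between the KO libraries at 44 h, 20 of 33 members were at least 2-fold apart on the log2(FPKM + 1) scale, against 11.2% of all genes tested. The members so far apart were 0 in KO cells at 0 h, 1 in WT cells at 44 h (Scd1) and 0 in WT cells at 0 h, where 2.32% to 3.16% of all genes were.

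The first enzymes of the sterol arm make mevalonate and turn it into isoprenoid units. Hmgcs1, HMG-CoA synthase, was listed at 0 in all 8 libraries. An exact 0 can be a failed estimate, so no level is given for it and it was not tested, which leaves 17 sterol enzymes. Acat2, the thiolase that precedes it, and Pmvk, the kinase after Mvk, were between 15.5 and 76.9 FPKM in all libraries.

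Mvk, mevalonate kinase, was 19.7 and 41.4 FPKM in KO cells at 44 h, 14.02 and 18.5 in KO cells at 0 h, 42.8 and 49.3 in WT cells at 44 h and 21.3 and 24.9 in WT cells at 0 h. Its WT libraries at 44 h lay above every other library. Mvd, the decarboxylase that makes isopentenyl diphosphate, was 12.7 and 37.7 FPKM in KO cells at 44 h, 8.92 and 11.4 in KO cells at 0 h, 36.2 and 44.1 in WT cells at 44 h and 19.98 and 16.6 in WT cells at 0 h. KO replicate 2 at 44 h lay within the WT range at 44 h, and the library labelled KO replicate 1 lay below both WT libraries at 0 h. Idi1, which isomerises that unit, was 20.1 and 79.1 FPKM in KO cells at 44 h, 12.3 and 14.9 in KO cells at 0 h, 95.6 and 71.6 in WT cells at 44 h and 30.4 and 23.2 in WT cells at 0 h. Again the KO libraries at 44 h were split, with replicate 1 below both WT libraries at 0 h and replicate 2 within the WT range at 44 h.

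Fdps, farnesyl diphosphate synthase, was the most abundant member in every group. It was 159.8 and 586 FPKM in KO cells at 44 h, 126 and 125 in KO cells at 0 h, 532 and 555 in WT cells at 44 h and 186 and 174 in WT cells at 0 h. KO replicate 2 at 44 h was the highest of the 8 libraries, and the library labelled KO replicate 1 at 44 h lay between the untreated groups. Fdft1, squalene synthase and the last step before squalene, was 74.8 and 134 FPKM in KO and 130.4 and 159 in WT cells at 44 h, and 96.7 and 89.4 in KO and 83.0 and 89.1 in WT cells at 0 h. It was the 1 sterol enzyme whose mean was higher in KO than in WT cells at 0 h.

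After squalene, the enzymes close the ring and trim the sterol to cholesterol. Sqle, squalene epoxidase, Lss, lanosterol synthase, Cyp51, lanosterol demethylase, Tm7sf2, a sterol reductase, and Hsd17b7, a keto-reductase, were each lowest in the library labelled KO replicate 1 among the 4 libraries at 44 h. Their FPKM in that library were 38.3, 5.53, 13.95, 2.18 and 10.1, against 137, 33.3, 55.6, 21.5 and 63.3 in KO replicate 2. Tm7sf2 showed the widest gap of all members between these libraries, 9.85-fold.

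Sc4mol, the methylsterol oxidase, was 107 and 327 FPKM in KO cells at 44 h, 82.1 and 88.1 in KO cells at 0 h, 329 and 333 in WT cells at 44 h and 153 and 135 in WT cells at 0 h. Both KO libraries at 0 h lay below both WT libraries at 0 h. Nsdhl, which removes the methyl groups as a dehydrogenase, was 24.7 and 41.0 FPKM in KO cells at 44 h, 18.3 and 21.1 in KO cells at 0 h, 39.7 and 46.4 in WT cells at 44 h and 27.1 and 22.7 in WT cells at 0 h. Ebp, a sterol isomerase, was 37.1 and 66.4 FPKM in KO against 57.1 and 56.1 in WT cells at 44 h, and 27.1 and 34.3 in KO against 42.3 and 39.0 in WT cells at 0 h. For Nsdhl and Ebp the groups overlapped between genotypes at 44 h and not at 0 h.

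Sc5d, a desaturase near the end of the pathway, did not follow the split between the KO libraries at 44 h. It was 142 and 112 FPKM in KO cells at 44 h, 37.7 and 55.7 in KO cells at 0 h, 181 and 192 in WT cells at 44 h and 92.9 and 72.8 in WT cells at 0 h. The 4 groups did not overlap, and Sc5d was the only sterol enzyme with the higher KO value at 44 h in replicate 1. Dhcr7, the reductase that yields cholesterol, was 14.03 and 80.3 FPKM in KO cells at 44 h, 12.4 and 10.1 in KO cells at 0 h, 98.3 and 110.4 in WT cells at 44 h and 23.7 and 21.4 in WT cells at 0 h. For Dhcr7 the library labelled KO replicate 1 at 44 h stood close to the KO libraries at 0 h and below both WT libraries at 0 h.

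**Figure D2:**
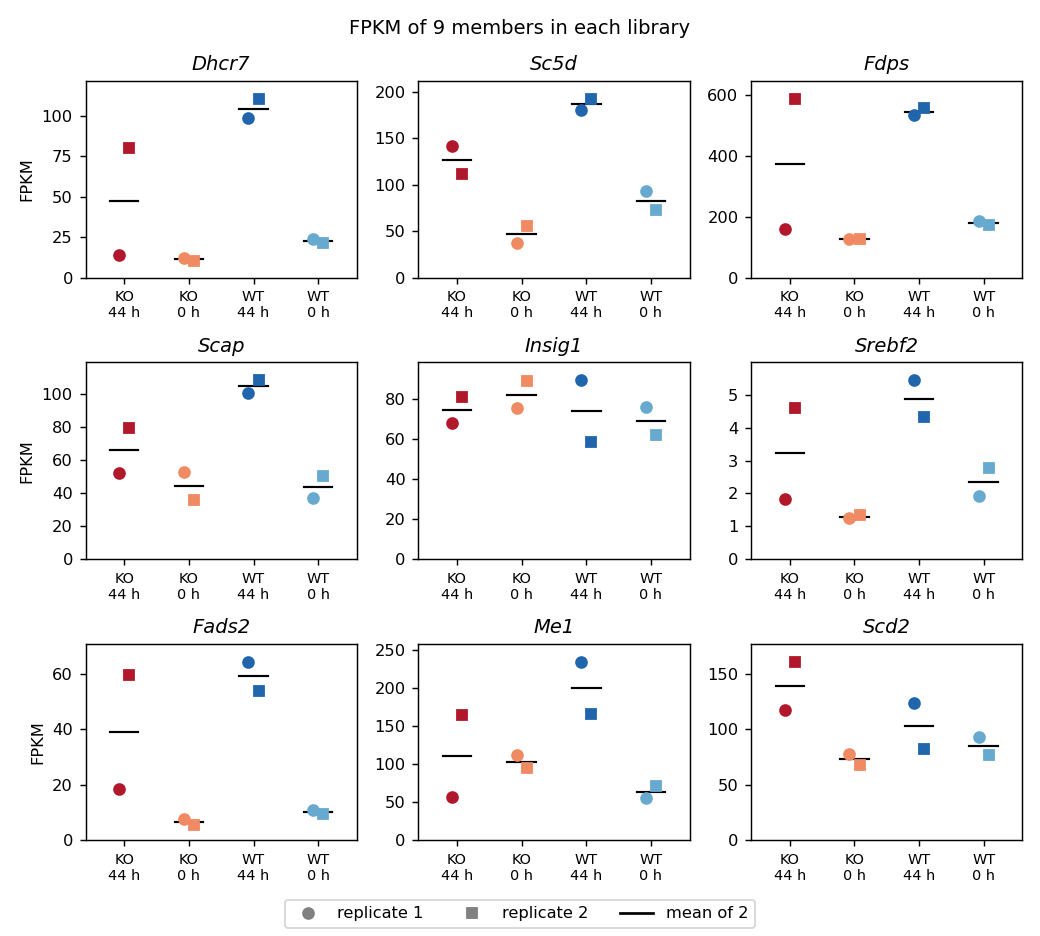
FPKM of 9 members in each library (circles, replicate 1; squares, replicate 2; bars, mean of 2 libraries), for KO 44 h, KO 0 h, WT 44 h and WT 0 h. Dhcr7, Fdps, Srebf2 and Fads2 show the wide split of the KO libraries at 44 h, which is narrower in Sc5d and Scd2. In each of these genes both KO libraries at 44 h lie above both KO libraries at 0 h. Insig1 is at 58.4 to 89.4 FPKM throughout.

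Over the 5 regulators the median difference was nearer 0 than over the sterol enzymes, both for 44 h against 0 h in each genotype and for KO against WT at each time. Srebf1 was 8.12 and 12.6 FPKM in KO cells at 44 h, 7.617 and 5.44 in KO cells at 0 h, 11.0 and 7.78 in WT cells at 44 h and 5.68 and 8.30 in WT cells at 0 h. Its WT groups overlapped. Srebf2 was 1.83 and 4.61 FPKM in KO cells at 44 h, 1.25 and 1.33 in KO cells at 0 h, 5.45 and 4.32 in WT cells at 44 h and 1.92 and 2.76 in WT cells at 0 h. The Srebf2 libraries were ordered like those of most sterol enzymes, with the WT groups apart and the KO libraries at 44 h split.

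Scap, the escort protein, was 52.4 and 79.5 FPKM in KO cells at 44 h, 52.9 and 35.9 in KO cells at 0 h, 101 and 108 in WT cells at 44 h and 36.98 and 50.2 in WT cells at 0 h. Both WT libraries at 44 h were above all others, and the KO libraries at 44 h were both below them. The retention proteins were the flattest members. Insig1 was 68.1 and 80.9 FPKM in KO and 89.4 and 58.4 in WT cells at 44 h, and 75.4 and 89.0 in KO and 75.9 and 61.9 in WT cells at 0 h, with all groups overlapping. Insig2 was 21.4 and 41.9 FPKM in KO and 42.4 and 34.9 in WT cells at 44 h, and 25.4 and 29.4 in KO and 37.4 and 33.5 in WT cells at 0 h, where the genotypes did not overlap. Insig1 is itself a known SREBP target, and its log2 change in WT was 0.076 (SE 0.235).

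In the fatty acid arm, the first group supplies acetyl-CoA and NADPH. Acly, ATP citrate lyase, was 45.8 and 172 FPKM in KO cells at 44 h, 45.3 and 50.96 in KO cells at 0 h, 232 and 187 in WT cells at 44 h and 73.1 and 70.3 in WT cells at 0 h. Both KO libraries were below both WT libraries at each time. Me1, the malic enzyme that makes NADPH, was 56.9 and 164 FPKM in KO cells at 44 h, 112 and 95.1 in KO cells at 0 h, 235 and 166 in WT cells at 44 h and 55.1 and 71.2 in WT cells at 0 h. Me1 was 1 of 2 members, with Fdft1, whose libraries at 0 h were all higher in KO than in WT. At 44 h in the library labelled KO replicate 1 it stood below both KO libraries at 0 h. Acss2, acetyl-CoA synthetase, was 2.23 and 15.9 FPKM in KO and 13.3 and 11.96 in WT cells at 44 h, and 4.196 and 3.13 in KO and 4.02 and 5.08 in WT cells at 0 h.

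The enzymes of palmitate synthesis itself were low. Fasn, fatty acid synthase, was 5.20 and 7.34 FPKM in KO cells at 44 h, 3.24 and 2.96 in KO cells at 0 h, 7.08 and 6.48 in WT cells at 44 h and 4.62 and 3.75 in WT cells at 0 h. Acaca, acetyl-CoA carboxylase, was 1.95 and 3.98 FPKM in KO and 2.61 and 2.71 in WT cells at 44 h, and 1.52 and 1.70 in KO and 1.54 and 1.44 in WT cells at 0 h. In both genes and both genotypes the 44 h libraries lay above those at 0 h, also in the library labelled KO replicate 1.

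Elongases and desaturases covered a wide range of levels. Elovl5, an elongase of polyunsaturated fatty acids, was 129 and 193 FPKM in KO cells at 44 h, 87.9 and 91.8 in KO cells at 0 h, 251 and 263 in WT cells at 44 h and 154 and 126 in WT cells at 0 h. As with Sc5d, KO was below WT at both times and 44 h above 0 h in both genotypes, without overlap. Elovl6, which elongates palmitate, was 9.69 and 38.7 FPKM in KO cells at 44 h, 4.53 and 3.86 in KO cells at 0 h, 39.1 and 42.01 in WT cells at 44 h and 13.2 and 6.87 in WT cells at 0 h. Fads2, the first desaturase of polyunsaturated fatty acid synthesis, was 18.4 and 59.7 FPKM in KO cells at 44 h, 7.79 and 5.54 in KO cells at 0 h, 64.5 and 53.9 in WT cells at 44 h and 11.0 and 9.62 in WT cells at 0 h. For Elovl6 and Fads2 both KO libraries at 44 h were above both at 0 h, but the library labelled KO replicate 1 was far below the WT libraries at 44 h.

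Fads1, the other desaturase of that series, was 33.2 and 81.0 FPKM in KO and 81.8 and 80.99 in WT cells at 44 h, and 25.8 and 22.4 in KO and 35.3 and 35.2 in WT cells at 0 h. The stearoyl-CoA desaturases, which make monounsaturated fatty acids, were unlike each other. Scd1 was 1.54 and 14.5 FPKM in KO and 12.8 and 5.28 in WT cells at 44 h, and 0.565 and 0.215 in KO and 1.39 and 0.621 in WT cells at 0 h. Scd2 was 117 and 161 FPKM in KO and 123 and 81.9 in WT cells at 44 h, and 77.4 and 68.2 in KO and 92.8 and 76.4 in WT cells at 0 h. Scd2 was thus far more abundant than Scd1 in every library, and its WT groups overlapped. The reads of these 2 related genes could be divided differently by another way of counting, which was not tested.

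For 44 h against 0 h in WT, the comparison asks how cells taken 44 h after PMSG differ from untreated ones. Libraries at 44 h were above those at 0 h without overlap in 29 of 33 members (17 of 17 sterol enzymes, 2 of 5 regulators and 10 of 11 fatty acid genes), against 22.5% of all genes tested. The exceptions were Srebf1, Insig1, Insig2 and Scd2. The largest log2 changes were in Fads2 (2.41, SE 0.479), Scd1 (2.24, SE 0.796) and Dhcr7 (2.16, SE 0.666). Among the sterol enzymes they ran from 0.47 for Ebp to that of Dhcr7, with a median of 1.06 before squalene and 1.19 after it. Summed over the 17 sterol enzymes, FPKM was 1962 and 2039 in WT cells at 44 h and 894 and 792 in WT cells at 0 h. The corresponding sums over the fatty acid genes were 1063 and 901 at 44 h and 446 and 407 at 0 h.

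Over all 8 libraries limma called 0 of 33 members in WT, with adjusted p of 0.0857 (Sc5d) to 0.872 (Insig1) and 19 members at an unadjusted p under 0.05, against 24.1% of all genes. It called 0.0804% of all genes tested. That fit shares 1 estimate of the spread across groups, including the KO pair at 44 h. With the 4 WT libraries alone, limma called 23 members higher (14 sterol enzymes, 1 regulator and 8 fatty acid genes), against 3.99% of all genes. They included Dhcr7 (adjusted p = 0.00368), Fads2 (0.00381), Fdps (0.00567), Sc5d (0.0214), Scap (0.0237) and Me1 (0.0206). Not called in that fit were Pmvk, Nsdhl, Ebp, Srebf1, Srebf2, Insig1, Insig2, Fasn, Acaca and Scd2. In fits of 7 libraries, 24 members were called without the 44 h library labelled KO replicate 1 (5.12% of all genes higher) and 24 without KO replicate 2 at 44 h (5.08%). Sample weights gave 18 (4.89%), and the WT libraries with the filter applied to them alone gave 24 (6.32%). The median over all genes moved from -0.13 to -0.01 under median-of-ratios scaling, and the sterol and fatty acid medians were then 1.23 and 1.43.

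For 44 h against 0 h in KO, 31 of 33 members lay above 0, with a median of 1.00 for sterol enzymes, 0.56 for regulators and 0.87 for fatty acid genes, against -0.11 over all genes. The members below 0 were Insig1 (-0.14) and Me1 (-0.09), both above 0 after median-of-ratios scaling. Libraries at 44 h were higher without overlap in 19 of 33 members (9 sterol enzymes, 2 regulators and 8 fatty acid genes), against 14.3% of all genes. These means average over unlike libraries. Against the KO 0 h mean, the library labelled KO replicate 1 at 44 h had a median of 0.27 over sterol enzymes and 0.52 over fatty acid genes. Replicate 2 had 1.87 and 1.71. Over all genes tested, the median against the KO 0 h mean was -0.17 in replicate 1 and -0.10 in replicate 2.

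In the 44 h library labelled KO replicate 1, 15 of 17 sterol enzymes were within 0.5 (log2) of the KO 0 h mean, the others being Sc5d at 1.61 and Idi1 at 0.54. Of the fatty acid genes 3 of 11 were within 0.5, Fads2 (1.36) and Elovl6 (1.04) were over 1 above it, and Me1 (-0.85) and Acss2 (-0.52) were below it. All 17 sterol enzymes and 10 of 11 fatty acid genes in this library lay below both WT libraries at 44 h, Scd2 being the exception. In KO replicate 2 at 44 h, 15 of 17 sterol enzymes and 9 of 11 fatty acid genes were within 0.5 of the WT 44 h mean. Across the 33 members, the change in WT and the change in this library had a Pearson r of 0.86 (Spearman 0.79), against 0.28 (0.20) for replicate 1. These are descriptions across genes of the same libraries, and genes are not independent replicates.

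**Figure D3:**
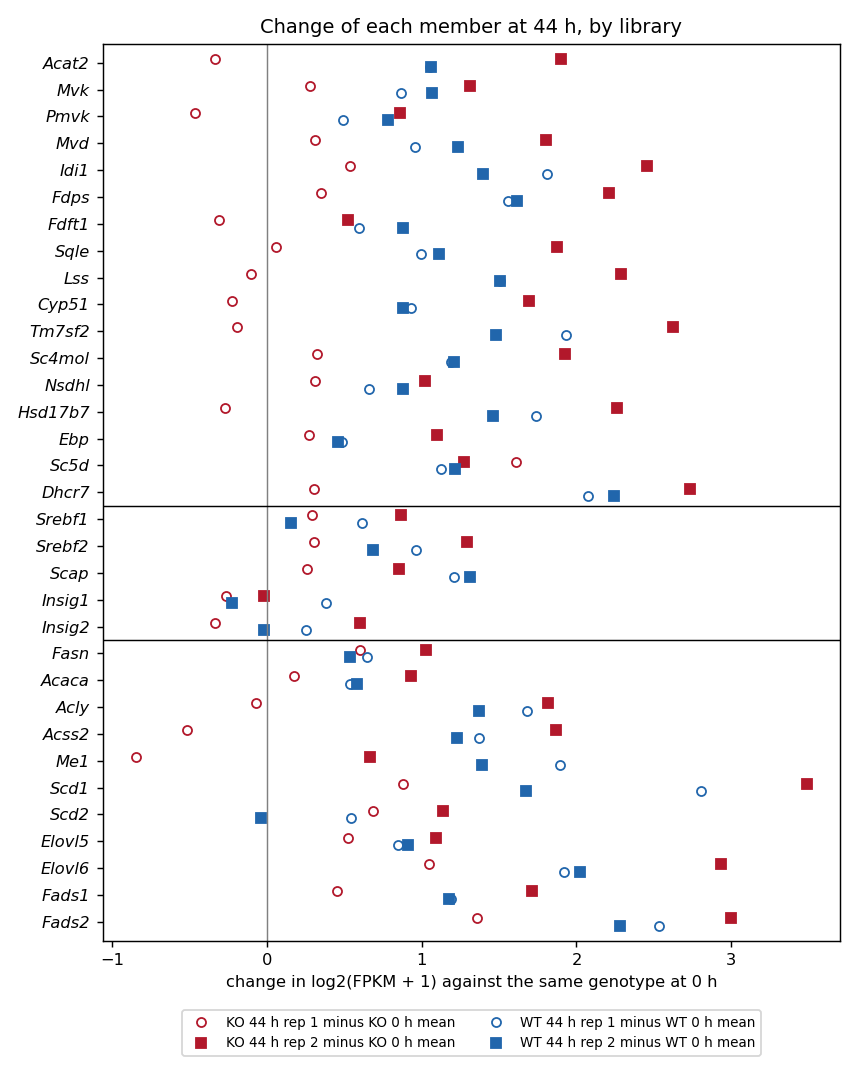
Change of each of the 33 tested members in log2(FPKM + 1) for each 44 h library against the 0 h mean of its own genotype (red, KO; blue, WT; open circles, replicate 1; filled squares, replicate 2). The red open circles of most sterol enzymes lie near 0, at a median of 0.27, and the red squares lie at a median of 1.87; Sc5d is the sterol enzyme whose red circle lies to the right of its square.

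Limma over all 8 libraries called 0 of 33 members for 44 h against 0 h in KO (adjusted p = 0.0813 for Sc5d to 0.930 for Me1, with 15 at an unadjusted p under 0.05, against 21.1% of all genes), and 0.139% of all genes. Without the library labelled KO replicate 1 it called 25 members higher (15 sterol enzymes, 1 regulator and 9 fatty acid genes), against 4.51% of all genes. Among them were Fdps (2.21, adjusted p = 0.00141), Dhcr7 (2.74, 0.00179), Sc4mol (1.93, 0.00262) and Srebf2 (1.29, 0.0364). Without replicate 2 it called 0 members, against 0.126% of all genes higher. Each of these fits leaves 1 KO library at 44 h, which is taken to vary like the libraries of the other groups.

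Luteal markers and markers of other cell types were read in the same libraries. In bulk samples the luteal list cannot tell luteal cells from granulosa cells that have taken up steroid making. Its Hsd3b1 was already at 1133 to 2354 FPKM in the untreated libraries. Summed FPKM of the 8 luteal markers was 2746 and 10737 in KO cells at 44 h, 1721 and 1227 in KO cells at 0 h, 11194 and 13460 in WT cells at 44 h and 2561 and 2042 in WT cells at 0 h. They were high in the same 3 libraries as most sterol enzymes, and their part in the results was not tested. Surface epithelium markers (7 of 8 in the table) summed to 128 and 399 in KO and 216 and 211 in WT cells at 44 h, and to 135 and 108 in KO and 165 and 135 in WT cells at 0 h, and their part was not tested either. Oviduct and ciliated markers, at 7.02 and 349 in KO and 388 and 10.1 in WT cells at 44 h, were far apart within both genotypes, and their part was not tested. The 10 theca and stroma markers summed to 237 and 348 in KO and 308 and 279 in WT cells at 44 h. At 0 h the sum was 95.7 to 130 in KO and 108 to 111 in WT cells. Cyp17a1 and Dcn made most of the sum at 44 h. Over the 9 markers tested, the median against the WT 0 h mean was 0.006 and 1.11 in KO cells at 44 h. It was 1.09 and 1.04 in WT cells at 44 h, and 0.50 and 0.33 in KO cells at 0 h. The 6 endothelial markers summed to 6.94 and 18.9 in KO and 12.8 and 16.5 in WT cells at 44 h, and to 14.4 and 11.2 in KO and 6.70 and 10.1 in WT cells at 0 h. Oocyte markers summed to 897 to 1457 in KO and 577 to 599 in WT cells at 44 h, below the 2852 to 3172 in KO and 1118 to 1925 in WT cells at 0 h. Immune markers (9 of 10 in the table) summed to 369 to 394 in KO and 215 to 294 in WT cells at 44 h. The part of these 4 lists in the results was not tested. Of 8 adipocyte markers 2 to 4 reached an FPKM of 1 in any library, and Adipoq was at most 0.309. Cidec was listed at 0 in all, which can be a failed estimate. The adipocyte markers summed to 21.8 to 23.0 in KO and 29.8 to 33.9 in WT cells at 44 h. At 0 h the sum was 11.9 to 18.7 in KO and 15.5 to 17.3 in WT cells. Plin1, Cfd, Lipe and Pnpla2 were higher at 44 h in WT without overlap, whereas Cfd and Lipe overlapped in KO. The part of the adipocyte markers in the results was not tested. In these bulk samples fewer cells of a type and less RNA per cell cannot be told apart.

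For KO against WT at 44 h, which asks whether the genotypes differ after PMSG, 29 of 33 members were lower in KO. The medians were -0.83 for sterol enzymes, -0.35 for regulators and -0.70 for fatty acid genes, against 0.05 over all genes. The 4 members not lower were Srebf1, Scd2, Insig1 (lower after median-of-ratios scaling) and Acaca (lower after quantile normalization). KO libraries lay below WT libraries without overlap in 10 of 33 members, against 15.1% of all genes. They were Mvk, Lss, Sc4mol, Sc5d, Dhcr7, Scap, Acly, Me1, Elovl5 and Elovl6. The largest mean differences were in Dhcr7 (-1.59, SE 0.666), Lss (-1.32, SE 0.663) and Acly (-1.22, SE 0.525).

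Limma called 0 of 33 members at 44 h (adjusted p = 0.494 for Elovl5 to 0.965 for Insig1, with 4 at an unadjusted p under 0.05, against 9.79% of all genes), and 0.0219% of all genes. Without KO replicate 2, 21 members were called lower in KO (14 sterol enzymes and 7 fatty acid genes), against 3.78% of all genes. The medians were then -1.76 for sterol enzymes and -1.63 for fatty acid genes, with Dhcr7 at -2.81 (adjusted p = 0.00276). Without the library labelled KO replicate 1, 0 members were called lower, against 0.022% of all genes, and the medians were -0.05 and 0.017. Sc5d was not called without replicate 2 (-0.39, adjusted p = 0.390).

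For KO against WT at 0 h, the untreated cells, the median was -0.75 over sterol enzymes, -0.08 over regulators and -0.51 over fatty acid genes, against 0.03 over all genes. KO libraries lay below WT libraries without overlap in 23 of 33 members (14 of 17 sterol enzymes, 2 of 5 regulators and 7 of 11 fatty acid genes), against 19.1% of all genes, and above them in 2, Fdft1 and Me1, against 27.3%. Unlike the comparison at 44 h, no pair of libraries within these groups was 2-fold apart in any member on the log2(FPKM + 1) scale. The largest differences were in Elovl6 (-1.03, SE 0.573), Dhcr7 (-0.95, SE 0.666) and Idi1 (-0.92, SE 0.551). The enzymes after squalene had a median of -0.78, all 10 of them lower, and those before it a median of -0.52, with 6 of 7 lower.

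Limma called 0 of 33 members at 0 h (adjusted p = 0.385 for Sc5d to 0.996 for Scap), and 0.0365% of all genes. Sc5d (-0.83, SE 0.233) and Elovl5 (-0.63, SE 0.212, adjusted p = 0.446) were the 2 members at an unadjusted p under 0.05, against 9.69% of all genes. The number called was 0 under every alternative tried. With 2 libraries against 2, an exact permutation test cannot go below p = 0.333. Oocyte markers summed to 2852 to 3172 FPKM in KO and 1118 to 1925 in WT cells at 0 h, and immune markers to 157 to 873 in KO and 205 to 227 in WT, with the part of either in these differences not tested.

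The genotype difference in the change with PMSG compares the change in KO with that in WT. Its median was -0.17 over sterol enzymes and -0.07 over fatty acid genes, against -0.01 over all genes. Limma called 0 of 33 members (all adjusted p = 1.00), and 0.0438% of all genes. Me1 had the 1 unadjusted p under 0.05, against 1.82% of all genes (-1.73, SE 0.644): its mean at 44 h over 0 h differed by -0.09 in KO and 1.64 in WT. The direction of the medians rested on which KO library at 44 h was used. Without replicate 2 they were -1.07 for sterol enzymes and -0.93 for fatty acid genes, with 2 members called lower, Me1 (-2.49, adjusted p = 0.0405) and Dhcr7 (-1.86, adjusted p = 0.0409), against 0.526% of all genes. Without the library labelled KO replicate 1 they were 0.66 and 0.53.

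The sterol and the fatty acid arm were set against each other within each library, as medians relative to the WT 0 h mean. For sterol enzymes these were -0.48 and 1.01 in KO cells at 44 h, -0.80 and -0.57 in KO cells at 0 h, 1.05 and 1.21 in WT cells at 44 h and 0.11 and -0.11 in WT cells at 0 h. For fatty acid genes they were 0.02 and 1.25 in KO cells at 44 h, -0.33 and -0.48 in KO cells at 0 h, 1.37 and 1.23 in WT cells at 44 h and 0.09 and -0.09 in WT cells at 0 h. All 8 libraries are set against the same pair, so these values are not independent of each other.

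Subtracting the fatty acid from the sterol median gave -0.50 and -0.24 in KO cells at 44 h, -0.47 and -0.08 in KO cells at 0 h, -0.32 and -0.02 in WT cells at 44 h and 0.02 and -0.02 in WT cells at 0 h. The ranges of KO at 44 h, KO at 0 h and WT at 44 h overlapped, and the values of WT at 0 h are opposite by construction. The sign rested on the baseline: set against the KO 0 h mean instead, the same subtraction gave -0.25 and 0.16 in KO cells at 44 h, -0.22 and 0.22 in KO cells at 0 h, 0.24 and 0.42 in WT cells at 44 h and 0.30 and 0.21 in WT cells at 0 h. For 44 h against 0 h in WT the difference between the arm medians was -0.21, and leaving out an untreated WT library gave 0.10 (replicate 1 left out) or -0.44 (replicate 2). No p is given for these medians, since the members were chosen with results known.

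**Figure D4:**
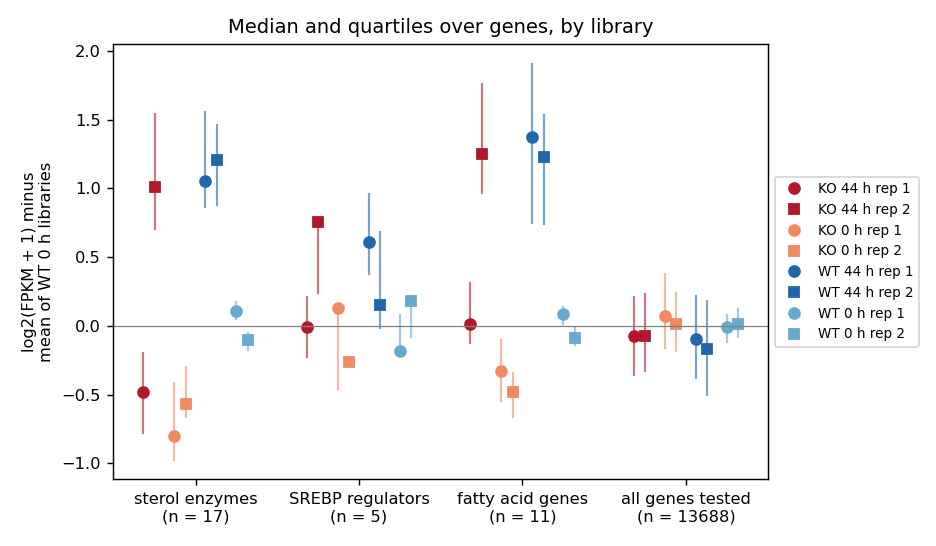
Median (symbols) and quartiles (lines) over the genes of each set of log2(FPKM + 1) minus the WT 0 h mean, for each of the 8 libraries. Sterol enzymes and fatty acid genes of both WT libraries and of KO replicate 2 at 44 h lie between 1.01 and 1.37, and all genes tested lie between -0.17 and 0.07.

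Within the fatty acid arm the log2 changes differed in size between genes. In WT the enzymes of palmitate synthesis, Fasn (0.59, SE 0.219) and Acaca (0.56, SE 0.271), had smaller log2 changes at 44 h than every other fatty acid gene except Scd2 (0.25, SE 0.248). The suppliers Acly (1.53), Acss2 (1.30) and Me1 (1.64), the elongase Elovl6 (1.97) and the desaturases Fads1 (1.18), Fads2 (2.41) and Scd1 (2.24) had the larger ones, with Elovl5 (0.88) between them. Fasn and Acaca were low, so adding 1 before the log understates their changes. Mean FPKM in WT at 0 h and 44 h was 4.19 and 6.78 for Fasn and 1.49 and 2.66 for Acaca. For Elovl5 it was 140 and 257, so the gap in log2 change between Acaca and Elovl5 rests in part on the added 1. The differences between genes were not tested.

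Beside the members, 28 other genes of sterol and fatty acid metabolism were read, of which 26 could be tested. Limma over 8 libraries called 0 of 26 in each of the 5 comparisons, and their medians were between -0.18 and 0.07. With the WT libraries alone, 4 of the 26 were called higher at 44 h, against 3.99% of all genes.

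Some genes of the wider set did not follow the members. Lpin1, a phosphatidate phosphatase, was 2.201 and 2.72 FPKM in KO and 3.68 and 4.54 in WT cells at 44 h, against 6.96 and 5.73 in KO and 8.605 and 8.93 in WT cells at 0 h. Mylip, a ubiquitin ligase, was 3.80 and 2.27 FPKM in KO and 2.96 and 1.86 in WT cells at 44 h, against 5.60 and 4.75 in KO and 5.59 and 5.75 in WT cells at 0 h. Both were lower at 44 h in both genotypes, in the 2 KO libraries alike, although neither passed the test over 8 libraries (adjusted p = 0.0953 to 0.231).

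Elovl7, another elongase, was 4.43 and 4.003 FPKM in KO and 2.05 and 1.68 in WT cells at 44 h, and 8.28 and 7.95 in KO and 2.43 and 3.93 in WT cells at 0 h. Abca1, the sterol exporter, was 5.44 and 5.69 FPKM in KO and 3.13 and 2.32 in WT cells at 44 h, and 3.85 and 3.86 in KO and 3.53 and 2.79 in WT cells at 0 h. For these genes the KO libraries at 44 h were close together and above WT (Elovl7 0.87, SE 0.232; Abca1 0.83, SE 0.207), again without passing the test (adjusted p = 0.477 and 0.457). Mbtps1, a protease that cleaves SREBPs, was 47.8 and 54.6 FPKM in KO and 66.9 and 69.05 in WT cells at 44 h. At 0 h Mbtps1 was 61.6 and 48.8 in KO and 65.6 and 72.4 in WT cells. Its KO libraries lay below its WT libraries without overlap at both times. Scd3 was between 0.503 and 2.44 in all libraries.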

How the data were processed

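The authors deposited 1 table of FPKM values with a column per library, per the file headers. Build mm9 and the tools Cufflinks 2.2.1 and TopHat2 2.1.1 are listed, without their roles, per the submitters' processing notes. Which annotation and filters were used is not given in the sources used here. Library kits named in the labels were TruePrep and TruSeq. A gene was tested if 2 or more libraries reached an FPKM of 1 (13688 of 23235 genes). FPKM are not counts, so log2(FPKM + 1) was fitted with limma 3.58.1 in R 4.3.3 (a mean per group over 8 libraries, empirical Bayes with trend, two-sided). Benjamini-Hochberg adjustment ran over the tested genes in each of 5 comparisons separately, and a call needed an adjusted p under 0.05. SE are those of that fit. The fit was tested on simulated data. That simulation gave each gene the same spread in every group, so it does not cover the wider spread of the KO libraries at 44 h.

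The members, the other gene lists, the tests and the rule for naming genes were chosen with earlier results of these data known. Values in all 8 libraries were required for the 3 sterol enzymes, 1 regulator and 3 fatty acid genes of smallest p in each of the 4 comparisons between a pair of groups, for Srebf1 and Srebf2, and for up to 4 of the other pathway genes. Alternatives covered the pseudocount (0.1 or 0.5), the filter (none, or an FPKM of 5), scaling, a replicate block, the groups in the fit, robust fits, sample weights and leaving out each library. FPKM give no counts, so no counting intervals are given. Some other pathway genes are not reported here.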

Additional observations from a re-analysis of the deposited data

How the results depend on the processing

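The count of members called was 0 over 8 libraries and stayed 0 with either pseudocount, either filter, quantile or median-of-ratios scaling and robust empirical Bayes. For 44 h against 0 h in WT it was 23 with the WT groups alone, 24 with the filter applied to them alone (chosen after seeing the data) and 18 with sample weights. Leaving out 1 library gave 0 to 24 called higher for 44 h against 0 h in WT, 0 to 25 for 44 h against 0 h in KO, 0 to 21 called lower for KO against WT at 44 h and 0 to 2 for the genotype difference. The counts above 0 came without a KO library at 44 h, which removes the widest pair from the estimate of the spread. Leaving out 1 library, the fatty acid median for KO against WT was -0.54 to -0.33 at 0 h and -1.63 to 0.017 at 44 h, and the sterol median for 44 h against 0 h in WT was 1.00 to 1.29. The sterol minus fatty acid median was then -0.44 to 0.10 in WT and -0.25 to 0.16 in KO. Of 3124 values of single members under alternatives, 2916 kept their side of the threshold and their direction or lay within 1 SE, 161 passed the threshold and 47 changed sign by more than 1 SE. The sign differed from that over 8 libraries in 114, none of them called, 96 of which came from leaving out 1 library; 70 were in the genotype difference, 22 of these without the 44 h library labelled KO replicate 1.

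With a replicate block the count was 0 in each of the 5 comparisons. Deviations of libraries with equal numbers correlated at -0.11 to -0.01 across genes, so no broad effect shared by equal numbers was seen. These correlations cannot exclude that equal numbers paired the samples. With the numbers of the KO libraries at 44 h crossed in the replicate block (chosen after seeing the data), 0 members were called for KO against WT at 44 h and 0 for 44 h against 0 h in KO.

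FPKM give no read depth per value, and each group held 2 libraries. The 6 members without a promoter window were not searched for letters, and Hmgcs1 had no level.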
